A study of Mus musculus with 12 samples.

Results

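The DNA replication machinery was followed as a set of 47 genes across 4 groups of mouse cells. The set was listed by function, from the proteins that mark origins to those that wrap new DNA in nucleosomes, and each gene was read from the probe set with the highest mean over the 12 arrays. All 47 listed genes were found among the 19938 genes with a probe set of their own. Values are log2 signals, so that a difference of 1 is a 2-fold difference, and levels were compared between arrays for a gene but not between genes.

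Each group had 3 arrays. WT_EC was lung endothelial cells from wild-type C57Bl/6 mice, and null_EC was lung endothelial cells from CD47 null C57Bl/6 mice, both grown in EGM2 medium. CD47 is a cell surface receptor for thrombospondin-1 and for SIRP alpha, and the study asked which genes change in cells that lack it. The null_EB group was embryoid bodies, floating cell aggregates, which came from CD47 null lung endothelial cells passaged for 6 months and then seeded in basal medium with no serum, where the bodies were seen after 24 to 36 h. The ESC arrays hold RNA of V6.5, 1 line of embryonic stem cells kept in 15% serum and LIF at 1000 IU/ml, whose labels give no CD47 genotype. WT_EC and null_EC share the medium, and no passage is given for either. In the other comparisons medium, growth form or, in the null_EB label, passage differ along with the cells. Their shares in a difference cannot be told apart. The labels do not say whether the 3 arrays of a group came from separate animals or cultures, so the p-values measure the spread between these arrays, which may be technical.

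Replication starts where the origin recognition complex sits on DNA. In G1 phase Cdc6 and Cdt1 help it to load a ring of 6 MCM proteins, which Cdc45 and the GINS complex turn into a running helicase in S phase. Primase and polymerase alpha lay down primers, polymerases epsilon and delta copy the strands with the sliding clamp PCNA, and ribonucleotide reductase and thymidylate synthase supply the building blocks. Many of these genes are transcribed in late G1 and S phase under E2F factors, and embryonic stem cells are known for short G1 phases and a large share of cells in S phase.

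The labels were set against marker genes before the replication genes were read. Pluripotency markers had array medians from 11.89 to 11.99 in ESC and from 6.40 to 6.86 in the other groups. By the median of 10 endothelial markers the groups labelled endothelial overlapped ESC: the array medians ran from 6.91 to 8.20 in WT_EC, 7.16 to 7.27 in null_EC and 7.17 to 7.31 in ESC. Single markers went both ways. Kdr lay between 8.51 and 9.35 in WT_EC and between 10.52 and 10.83 in null_EC, above 6.84 to 6.98 in ESC, while Pecam1 lay between 6.46 and 7.56 in WT_EC and between 8.84 and 8.87 in ESC. Cdh5 and Esam stood above their ESC levels on WT_EC 1, at 9.10 and 10.34, and WT_EC 3, at 9.52 and 9.53, and not on WT_EC 2, at 6.85 and 6.97. Mesothelial markers had array medians from 10.56 to 11.28 in WT_EC, 11.76 to 11.80 in null_EC, 10.47 to 10.78 in null_EB and 7.79 to 7.84 in ESC. The null_EC medians thus lay above those of WT_EC and null_EB without overlap. Muc16 read 6.22 to 8.35 in WT_EC and 10.03 to 10.07 in null_EC, while Msln and Krt19 overlapped between these groups. Those of 7 fibroblast markers ran from 11.16 to 12.60 in WT_EC, 11.29 to 11.46 in null_EC, 10.59 to 10.80 in null_EB and 10.56 to 10.76 in ESC. Dpt, one of them, read 7.44 to 9.57 in WT_EC and 5.56 to 5.62 in null_EC. The remaining fibroblast markers, Col1a1, Col1a2, Col3a1, Pdgfra, Dcn and Lum, overlapped between WT_EC and null_EC. The 8 leukocyte markers had a median of 10.30 on WT_EC 3, 7.77 on WT_EC 1 and 6.75 to 7.01 on the remaining arrays, and their defining gene Ptprc read 9.01 on WT_EC 3 and 6.21 to 6.49 elsewhere. Cd14, another of them, was highest on WT_EC 2, at 10.20 against 8.73 on WT_EC 3. Cd68 and Laptm5 were highest on WT_EC 3, at 11.68 and 11.27. Cd68 still read 9.68 to 10.38 in null_EC, null_EB and ESC, and Laptm5 9.52 to 9.70 in ESC. The part of these other cell types in the results below was not tested. Cd47 read 12.59, 11.29 and 12.48 on the WT_EC arrays and 10.98, 11.11 and 11.02 on the null_EC arrays, a log2 difference of -1.09 (adjusted p = 0.0228). The Cd47 mean was 10.94 in null_EB and 11.17 in ESC. By limma, ESC was not called against null_EC (log2 difference 0.14, adjusted p = 0.691) and was called lower than WT_EC (-0.95, adjusted p = 0.0141). WT_EC 2 lay close to the null_EC arrays, and which exons the Cd47 probe set covers is not known here.

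Promoters were read for the words that E2F factors bind, because the replication genes are textbook E2F targets. RefSeq promoter windows on GRCm38.p6, 250 bases before to 50 bases after a gene's start, were at hand for 38 of the 47 genes. Gins1, Gins2, Gins4, Gmnn, Mcm4, Pole, Prim2, Rfc2 and Tipin had none in the table used. Of the 38 genes, 24 (63.2%) held at least 1 of the 7-letter words TTCCCGC or TTGGCGC or TTCGCGC or TTGCCGC on either strand, against 10.9% of 27025 genes with a window. Counted by window, the words stood in 26 of the 44 windows of these genes (59.1%) and in 9.57% of all 32851 windows. The CCAAT word, on either strand, stood in 23 of the 38 genes (60.5%) and in 41.1% of all genes. The windows of the replication genes were also richer in G and C, with a median of 58.8% against 52.7%. A match is a run of letters and not a measured binding site.

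**Figure D1:**
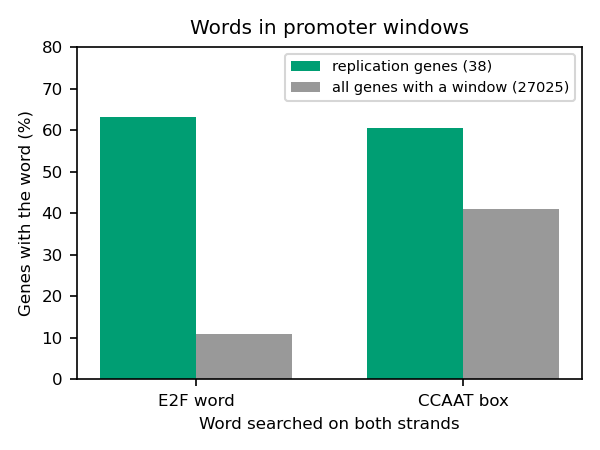
Share of genes, in percent, with an E2F word or a CCAAT word in a 300-base promoter window, for 38 replication genes (green) and for all 27025 genes with a window (grey). The E2F words stood in 63.2% of the replication genes and 10.9% of all genes, and the CCAAT word in 60.5% and 41.1%.

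The 2 windows below belong to the genes with an E2F word and the largest difference between null_EC and WT_EC, and they show how differently such promoters are built. Both are read 5′ to 3′ on the gene's strand, the plus strand, and capitals mark the E2F words. Prim1, the catalytic subunit of primase, lies at chr10:128014965-128015264 and holds 1 word, TTCCCGC, at bases 236 to 242 of the window. Mcm5, a subunit of the helicase ring, lies at chr8:75109259-75109558 and holds 3, at bases 87 to 93, 99 to 105 and 102 to 108, the last pair overlapping so that TTCGCGC runs on into TTGGCGC on the opposite strand.
Prim1: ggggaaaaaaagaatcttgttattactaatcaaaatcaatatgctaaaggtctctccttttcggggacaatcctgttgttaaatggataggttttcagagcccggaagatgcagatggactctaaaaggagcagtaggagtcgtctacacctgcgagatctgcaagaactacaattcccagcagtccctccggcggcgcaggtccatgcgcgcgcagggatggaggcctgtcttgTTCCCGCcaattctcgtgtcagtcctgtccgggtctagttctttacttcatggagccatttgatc
Mcm5: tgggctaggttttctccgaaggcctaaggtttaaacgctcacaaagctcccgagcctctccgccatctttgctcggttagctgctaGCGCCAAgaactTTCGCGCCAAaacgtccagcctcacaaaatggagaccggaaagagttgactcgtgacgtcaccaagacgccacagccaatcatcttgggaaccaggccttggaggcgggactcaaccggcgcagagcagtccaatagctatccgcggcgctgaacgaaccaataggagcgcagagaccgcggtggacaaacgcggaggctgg

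Short stretches around a word in 5 more genes show the same letters in other settings and were chosen after the values were seen. Mcm3 (chr1:20820263-20820280), Mcm6 (chr1:128359665-128359691), Mcm7 (chr5:138171847-138171873) and Pola1 (chrX:93632124-93632150) are read on the minus strand and Rrm1 (chr7:102441618-102441644) on the plus strand. In Mcm3 and Mcm7 a pair of words overlaps, each on the opposite strand from the other. Mcm6 held 5 words in its window, Pola1 held 4, Mcm3 and Mcm7 held 3 each and Rrm1 held 1.
Mcm3: ggaagttTTGGCGCCAAg
Mcm6: ccggaggcgcGCGCGAAgtggcagcgc
Mcm7: acgacgtTTCGCGCCAAtttcggttgg
Pola1: ttcaggctggTTGGCGCggaatagaga
Rrm1: ggagaactcgTTCCCGCcaggtccgct

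ESC had the highest group mean for all 47 genes, except that Rrm1 in ESC fell below null_EC (log2 difference -0.04) when the arrays were scaled to housekeeping genes. The lowest mean was in null_EC for 39 genes, in null_EB for 7 and in WT_EC for 1, Rrm1. The median of the 47 genes was 9.30, 8.91 and 8.74 on the WT_EC arrays. For null_EC it came to 8.25, 8.30 and 8.35, for null_EB to 8.73, 8.60 and 8.53, and for ESC to 10.60, 10.69 and 10.66. WT_EC and null_EC do not overlap in this median, and null_EB lies between the null_EC arrays and the WT_EC arrays, its highest array just short of the lowest WT_EC array.

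**Figure D2:**
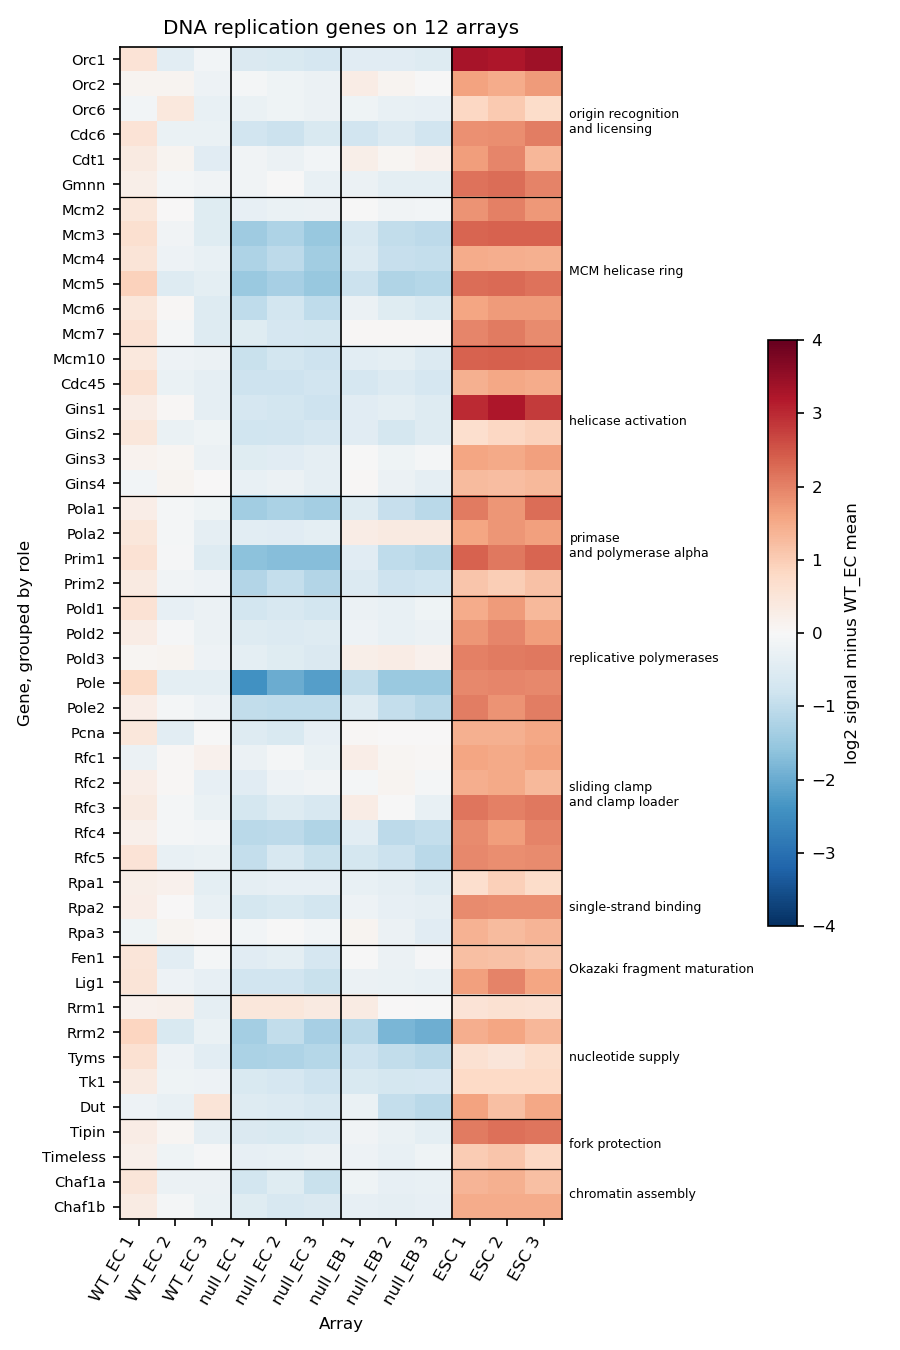
Log2 signal of 47 replication genes (rows, grouped by role) on 12 arrays (columns), drawn as the difference from the gene's WT_EC mean, blue for lower and red for higher. The ESC columns are red throughout, the null_EC columns are blue for nearly all rows with Pole the deepest (group mean 2.21 below WT_EC), and WT_EC 1 is redder than WT_EC 2 and WT_EC 3.

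The WT_EC arrays differed most among themselves. The median standard deviation of the 47 genes over 3 arrays was 0.378 in WT_EC, against 0.0767 in null_EC, 0.117 in null_EB and 0.0882 in ESC. Over all genes WT_EC was also the widest, with medians of 0.213, 0.0652, 0.0770 and 0.0847 in the same order. WT_EC 1 was the highest WT_EC array for 40 of the 47 genes and WT_EC 3 the lowest for 32. In null_EB, array 1 was highest for 37 genes and array 3 lowest for 28. The shares of all genes with these array orders were not taken. The limma fit gives each gene 1 spread for all 4 groups. That spread is therefore too small for comparisons with WT_EC and too large for those without it. For the 47 genes, in comparisons without ESC, counts from fits that do not share the spread are given beside the first ones. For ESC the closing section gives how many calls held. The lists of neighbouring genes were counted in the first fit alone.

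Replication genes were lower in null_EC than in WT_EC. At an adjusted p below 0.05, 29 of the 47 genes were lower and 0 were higher, where 5.00% of all genes were called lower and 8.12% higher. The median log2 difference was -0.62, against 0.03 over all genes, and 46 of the 47 differences were negative. For 34 genes all 3 null_EC arrays lay below all 3 WT_EC arrays, which holds for 8.88% of all genes. At least 2-fold differences were called for 11 genes, against 3.27% of all genes in either direction. With the fit limited to these 6 arrays the count was 6 genes, against 2.95% of all genes: Pola1, Prim1, Prim2, Pole, Pole2 and Rfc4, with adjusted p from 0.0108 to 0.0299. With a weight for each group it was 19 genes (7.68% of all genes). Left out in turn, the WT_EC arrays gave 32 genes called without array 1 (17.3% of all genes), 34 without array 2 (27.3%) and 34 without array 3 (15.6%), with medians of -0.44, -0.72 and -0.80. In each of the first pair of these fits 1 of the called genes, Rrm1, was higher. Without null_EC 1 the count was 16 genes (6.70% of all genes) and without null_EC 3 it was 17 (7.27%). In bulk RNA, fewer cells in S phase and less RNA of these genes in each cell cannot be told apart.

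**Figure D3:**
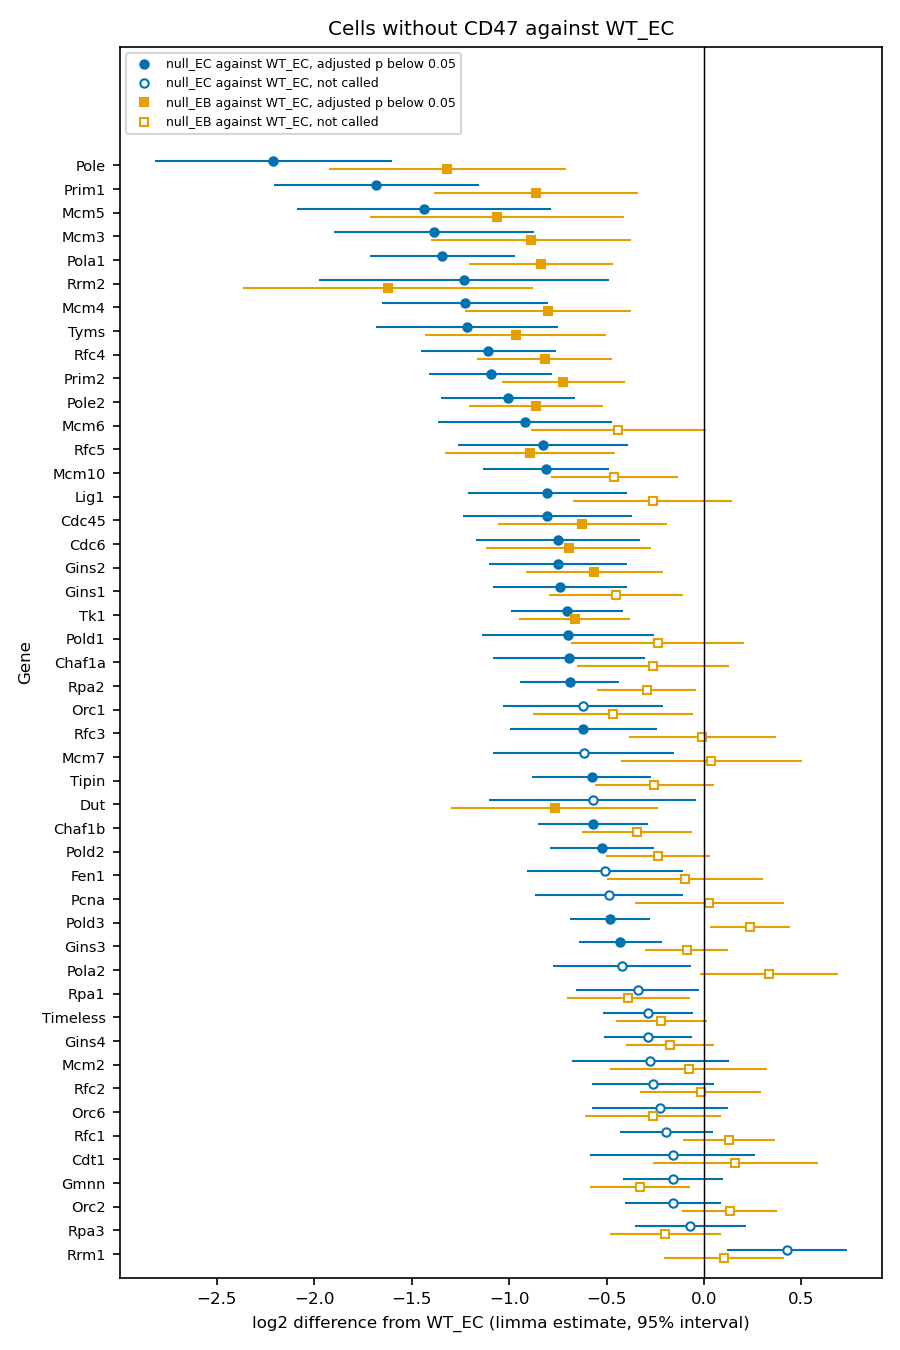
Log2 difference from WT_EC of 47 genes in null_EC (blue circles) and null_EB (orange squares), with 95% intervals from limma; filled symbols are called at an adjusted p below 0.05. The null_EC values run from -2.21 (Pole) to 0.43 (Rrm1), and both series share the 3 WT_EC arrays.

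The largest single drop was in a polymerase that copies the strands. Pole, the catalytic subunit of polymerase epsilon, which copies the leading strand, read 9.86, 8.70 and 8.69 in WT_EC and 6.65, 7.08 and 6.89 in null_EC. The null_EC arrays lay far below all 3 WT_EC arrays, and the fitted difference was -2.21 ± 0.28 (SE), a 4.63-fold lower level (adjusted p = 0.00047). Its partner Pole2 read 8.69, 8.34 and 8.22 against 7.43, 7.39 and 7.42, a 2.01-fold difference with no overlap. The polymerase delta subunits fell less. Pold1, its catalytic subunit, was 1.62-fold lower, Pold2 1.43-fold and Pold3 1.40-fold, so that 5 of the 5 genes of this role were called, with a median of -0.70.

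Primase and polymerase alpha, which start each new strand, had the largest median drop of any role, -1.22 over 4 genes. Prim1 read 8.97, 8.36 and 7.89 in WT_EC and 6.76, 6.70 and 6.70 in null_EC. The null_EC arrays were nearly equal while the WT_EC arrays were spread out above them, and the difference was -1.68 ± 0.24, 3.21-fold (adjusted p = 0.00104). Pola1, the catalytic subunit of polymerase alpha, read 9.20, 8.83 and 8.75 against 7.53, 7.65 and 7.58, without overlap and 2.54-fold lower. Prim2, the other primase subunit, was 2.14-fold lower. Pola2, the accessory subunit, read 9.48, 8.95 and 8.65 against 8.60, 8.59 and 8.64, where WT_EC 3 nearly meets the null_EC arrays, and its 1.34-fold lower value was not called (adjusted p = 0.119).

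Of the 6 genes of the MCM ring, 4 were called lower. Mcm5 read 10.50, 9.06 and 9.19 in WT_EC and 8.10, 8.26 and 8.07 in null_EC, and Mcm3 read 9.30, 8.51 and 8.16 against 7.24, 7.42 and 7.16. Neither gene's groups overlap, WT_EC 1 stands highest for both, and they were 2.70-fold (adjusted p = 0.00915) and 2.61-fold (adjusted p = 0.00293) lower. In the limma fit limited to these 6 arrays neither was called (adjusted p = 0.124 for Mcm5 and 0.069 for Mcm3). Mcm4 was 2.34-fold and Mcm6 1.89-fold lower. Mcm7 read 11.11, 10.44 and 10.01 against 10.04, 9.85 and 9.81, with WT_EC 3 inside the null_EC range, and its 1.53-fold difference was not called (adjusted p = 0.0825). Mcm2 read 10.57, 10.12 and 9.64 against 9.79, 9.85 and 9.86, so the groups overlap, and its 1.21-fold difference was not called either (adjusted p = 0.39).

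**Figure D4:**
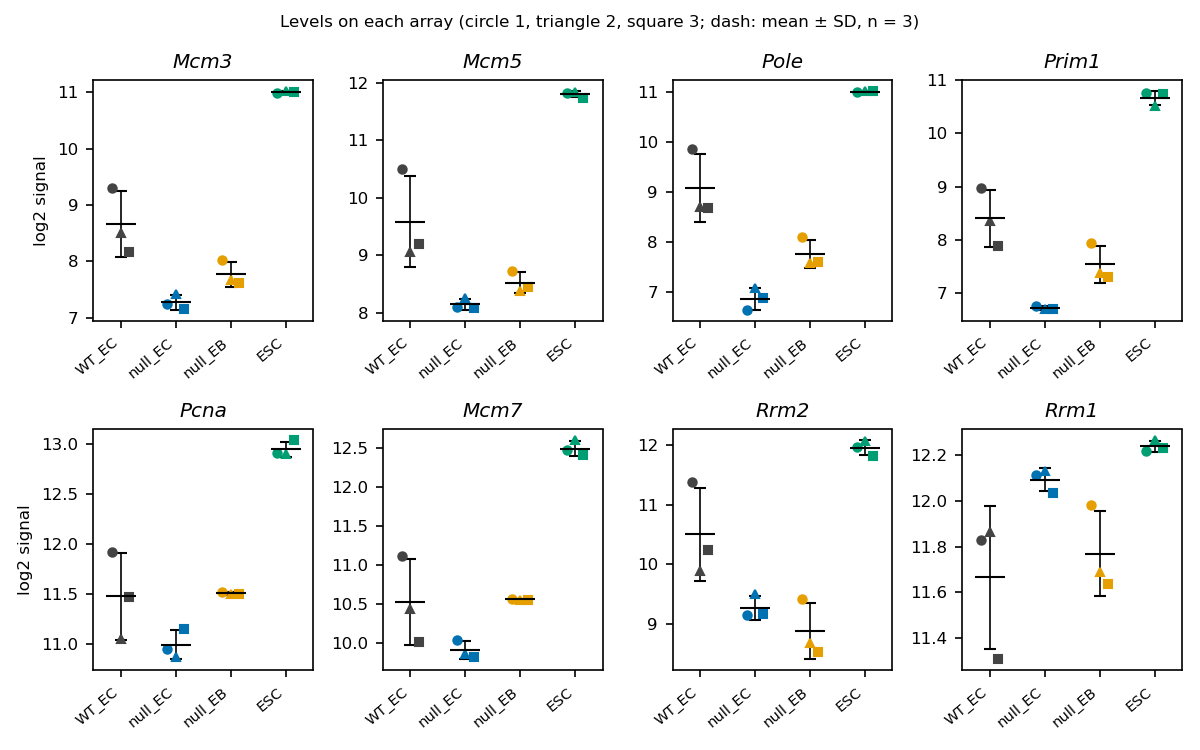
Log2 signal of 8 replication genes on each array (circle, triangle and square for arrays 1, 2 and 3), with the mean and SD of the 3 arrays as dash and bar; each panel has its own axis, which does not start at 0. Mcm3, Mcm5, Pole and Prim1 are lowest in null_EC with null_EB between it and WT_EC, Pcna and Mcm7 in null_EB are level with the WT_EC mean, Rrm2 is lowest in null_EB, and Rrm1 is lowest in WT_EC.

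Genes that turn the loaded ring into a helicase fell by smaller amounts but together. Mcm10 was 1.75-fold lower, Cdc45 1.74-fold, Gins2 1.68-fold, Gins1 1.67-fold and Gins3 1.35-fold, and all 5 were called. Gins1 and Gins3 had group means below 8.01, the median of all values, in both groups, so their signal was low. Gins4, the last GINS subunit, was 1.22-fold lower without a call (adjusted p = 0.0957). For all 6 genes the null_EC arrays lay below the WT_EC arrays.

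Among the 6 genes of origin recognition and licensing, 1 was called. Cdc6, the loader of the MCM ring, read 8.50, 7.68 and 7.69 in WT_EC and 7.20, 7.08 and 7.34 in null_EC. Its arrays did not overlap, and it was 1.68-fold lower (adjusted p = 0.0258) at low signal. Orc1, the origin recognition subunit known to be made and destroyed with the cell cycle, read 7.44, 6.47 and 6.78 against 6.31, 6.30 and 6.22, and its 1.54-fold difference missed the threshold (adjusted p = 0.0507) at low signal. Orc2, Orc6, Cdt1 and Gmnn, the inhibitor of Cdt1 and of low signal here, differed by 1.12-fold to 1.17-fold with no call. A missed call does not show equal levels: the 95% interval for Cdt1 ran from -0.58 to 0.26 on the log2 scale.

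Of the sliding clamp and its loader 3 of 6 genes were called. The small loader subunits Rfc4 (2.15-fold), Rfc5 (1.77-fold) and Rfc3 (1.54-fold) were lower, and Rfc1, the large subunit, and Rfc2 were not called, at log2 differences of -0.19 and -0.26. Rfc4 read 10.11, 9.84 and 9.81 in WT_EC against 8.85, 8.88 and 8.71 in null_EC, both groups tight and well apart. Pcna, the sliding clamp itself, read 11.92, 11.05 and 11.47 against 10.95, 10.87 and 11.16, where WT_EC 2 lies below null_EC 3, and was not called (1.40-fold lower, adjusted p = 0.094). Of the single-strand binding proteins Rpa2 was 1.61-fold lower, and Rpa1 and Rpa3 were not called. Lig1, the ligase that seals Okazaki fragments, was 1.75-fold lower, and Fen1, the flap nuclease, at 1.42-fold lower was not called (adjusted p = 0.0971). Tipin, of the fork protection complex, was 1.49-fold lower and its partner Timeless, at 1.22-fold and low signal, was not called. Both subunits of the chromatin assembly factor were lower, Chaf1a by 1.62-fold and Chaf1b by 1.48-fold.

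Nucleotide supply held the 1 gene that ran the other way. Rrm1, the large subunit of ribonucleotide reductase, read 11.83, 11.86 and 11.31 in WT_EC and 12.11, 12.13 and 12.03 in null_EC. All null_EC arrays lay above all WT_EC arrays, as they do for 16.7% of all genes, and the 1.34-fold difference was not called (adjusted p = 0.0739). Rrm2, the small subunit, whose level is known to rise in S phase, read 11.37, 9.89 and 10.24 against 9.15, 9.50 and 9.16. It was 2.35-fold lower (adjusted p = 0.0355), with WT_EC 1 well above the other WT_EC arrays. Tyms, thymidylate synthase, was 2.32-fold and Tk1, thymidine kinase, 1.63-fold lower. Dut, which removes dUTP, was not called at 1.49-fold lower (adjusted p = 0.159).

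In null_EB the replication genes stood slightly above null_EC. The 2 called genes of 47 were both higher, where 2.90% of all genes were called higher and 2.50% lower. Their share of 4.26% is near that of all genes. Pold3, an accessory subunit of polymerase delta, read 8.58, 8.48 and 8.40 in null_EC and 9.20, 9.28 and 9.13 in null_EB. The groups lay well apart, a 1.65-fold difference (adjusted p = 0.00157). Pola2 read 8.60, 8.59 and 8.64 against 9.32, 9.38 and 9.38, 1.68-fold higher (adjusted p = 0.0228), a call lost when any null_EC or null_EB array was left out.

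Most of the remaining genes were also higher, by less than the pooled spread could call. The median log2 difference was 0.29, against -0.01 over all genes, and 39 of the 47 differences were positive. An unadjusted p below 0.05 was found for 22 genes, a count whose share over all genes was not taken. For 32 genes all null_EB arrays lay above all null_EC arrays, against 21.9% of all genes. Mcm7 read 10.04, 9.85 and 9.81 in null_EC and 10.57, 10.55 and 10.55 in null_EB, a 1.57-fold difference with no overlap and no call (adjusted p = 0.112). Prim1 read 7.94, 7.38 and 7.30 in null_EB, 1.77-fold above null_EC (adjusted p = 0.0783), and Pole read 8.10, 7.59 and 7.61, 1.86-fold above it (adjusted p = 0.0977). With the WT_EC arrays left out of the fit, an alternative chosen after the data were seen, 27 genes were higher and 1, Rrm1, was lower, where 13.7% and 11.7% of all genes were called. Among the 27 were Mcm7 (adjusted p = 2.05e-05), Prim1 (0.000465), Pole (0.000193), Pcna (0.000211), Rpa2 (0.000382) and Lig1 (0.000702). Limited to the 6 arrays compared, the fit called 30 genes (27.4% of all genes), 1 of them lower, with group weights 29 (26.9%), 1 of them lower, and with array weights 35 (40.1%), 4 of them lower, Rrm1, Rrm2, Dut and Gmnn. The 8 negative differences of the first fit, with no call, were Rrm2, at -0.39, Rrm1, at -0.32, Dut, at -0.19, Gmnn, at -0.17, Rpa3, at -0.13, Rfc5, at -0.07, Rpa1, at -0.05, and Orc6, at -0.04. Scaled to housekeeping genes, which moved the median of all genes to 0.18, the set's median was 0.48, 14 genes were called higher (8.76% of all genes) and 5 of the 8 negative differences turned positive.

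The null_EB group was then set against WT_EC, which shares its arrays with the comparison of null_EC. Of the 47 genes 17 were lower and 0 higher, where 6.19% and 12.3% of all genes were called. The median log2 difference was -0.33, against 0.02 over all genes, and for 21 genes the null_EB arrays lay below the WT_EC arrays, against 9.94% of all genes. At least 2-fold differences were called for 3 genes, against 3.40% of all genes. In the fit limited to these 6 arrays, 19 genes had an unadjusted p below 0.05, a count whose share over all genes was not taken. In that fit limma called 0 of the 47 genes, against 4.36% of all genes. With group weights it called 7 (9.60% of all genes), without null_EB 2 it called 9 (10.2%) and without null_EB 3 it called 8 (11.0%). Scaled to housekeeping genes, which moved the median of all genes to 0.16, 13 genes were lower and 1 higher (3.86% and 20.0% of all genes), and 5 differences changed sign.

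Rrm2 was the furthest from WT_EC in null_EB. It read 9.42, 8.68 and 8.53 there, below the 3 WT_EC arrays, a difference of -1.62 ± 0.34 and a 3.08-fold lower level (adjusted p = 0.00745). Pole was 2.49-fold (adjusted p = 0.0077) and Mcm5 2.09-fold (adjusted p = 0.0305) lower. The 14 further called genes were Cdc6, Mcm3, Mcm4, Cdc45, Gins2, Pola1, Prim1, Prim2, Pole2, Rfc4, Rfc5, Tyms, Tk1 and Dut, between 1.48-fold and 1.95-fold lower.

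Other members in null_EB read close to WT_EC. Pcna read 11.52, 11.50 and 11.50 in null_EB against a WT_EC mean of 11.48 ± 0.44 (SD, n = 3), a difference of 0.03 with a 95% interval from -0.35 to 0.41. Mcm7 differed by 0.04, Rfc2 by -0.02 and Rfc3 by -0.01, and the last pair turned positive under the housekeeping scaling. Their intervals reach 0.37 for Rfc3 and 0.50 for Mcm7, so equal levels are not shown. Rrm1, at 11.98, 11.69 and 11.64, overlapped the WT_EC arrays as well.

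ESC stood above the other groups for the whole set. Against null_EC 46 of the 47 genes were higher and 0 lower, where 22.9% of all genes were called higher and 25.1% lower, and all 46 differed at least 2-fold, as did 16.5% of all genes in either direction. Against null_EB 47 of 47 were higher, where 21.8% of all genes were called higher and 23.0% lower, and against WT_EC 47 of 47, where the shares were 25.4% and 21.7%. The median log2 difference was 2.29 from null_EC, 1.94 from null_EB and 1.65 from WT_EC, where all genes had medians of -0.09, -0.08 and -0.07. The comparisons share the ESC arrays. Against WT_EC, 40 of the 47 genes differed at least 2-fold (15.7% of all genes), and for 46 all ESC arrays lay above all WT_EC arrays (25.5% of all genes), Tyms being the exception. Set against the null_EC and null_EB arrays, the ESC arrays lay above them for 47 of 47 genes each time, against 30.5% and 29.6% of all genes.

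Orc1 and Gins1 had the largest differences between ESC and WT_EC. Orc1 read 10.18, 10.12 and 10.28 in ESC, where the highest array of another group, WT_EC 1, read 7.44. It was 9.82-fold above WT_EC (adjusted p = 1.31e-07), 15.1-fold above null_EC (adjusted p = 2.56e-08) and 13.6-fold above null_EB (adjusted p = 4.09e-08). Gins1, a subunit of the helicase activator GINS, read 9.79, 10.04 and 9.60 in ESC. WT_EC 1, at 7.11, was the highest of the other arrays, and Gins1 in ESC was 8.08-fold above WT_EC, 13.5-fold above null_EC and 11.1-fold above null_EB. Both genes had low signal outside ESC.

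The order by size depended on the group ESC was set against. Against null_EC the largest differences were in Pole (17.6-fold), Prim1 (15.4-fold), Orc1, Gins1, Mcm3 (13.3-fold), Mcm5 (12.7-fold) and Pola1 (10.3-fold). Against WT_EC, after Orc1 and Gins1, came Mcm10 (5.18-fold), Mcm3 (5.09-fold), Prim1 (4.81-fold) and Mcm5 (4.68-fold), and Pole stood at 3.81-fold. Pole itself read 11.00, 11.02 and 11.02 in ESC, the 3 arrays nearly equal. Mcm5 read 11.83, 11.85 and 11.75 and Prim1 10.75, 10.52 and 10.73 there, above all 9 arrays of the other groups. Pcna, at 12.91, 12.91 and 13.04, was 2.77-fold above WT_EC and 3.89-fold above null_EC.

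Nucleotide supply had the smallest median difference of any role between ESC and WT_EC, 0.79, while against null_EC and null_EB single-strand binding had the smallest, 1.40 and 1.53. Rrm1 read 12.22, 12.26 and 12.23 in ESC and was 1.49-fold above WT_EC (adjusted p = 0.00607), 1.38-fold above null_EB (adjusted p = 0.0182) and, without a call, 1.11-fold above null_EC (adjusted p = 0.415). Tyms read 10.12, 10.01 and 10.22, and WT_EC 1, at 10.14, lay among them. It was 1.51-fold above WT_EC (adjusted p = 0.0388), a call lost in 7 of the 14 alternative settings, and 3.51-fold above null_EC. Tk1 was 1.72-fold above WT_EC, and Orc6, Gins2, Rpa1 and Timeless were also less than 2-fold above it, at 1.82-fold, 1.74-fold, 1.73-fold and 1.98-fold. Rrm2 was 2.74-fold above WT_EC, 6.42-fold above null_EC and 8.42-fold above null_EB.

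Genes with and without an E2F word in the promoter were counted side by side. In null_EC against WT_EC, 17 of the 24 genes with a word were lower, with a median of -0.69, and 6 of the 14 without one, with a median of -0.50. In ESC against null_EC the medians were 2.57 and 1.99, in ESC against null_EB 2.05 and 1.51, and in ESC against WT_EC 1.80 and 1.48. In null_EB against WT_EC the medians were -0.28 and -0.33, in the other order. Rrm1, the 1 gene with a higher mean in null_EC, holds a word, and Pole, the gene with the largest difference, has no window in the table. The genes with and without a word were not compared by a test.

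Neighbouring genes of the pathway were read from lists by function. Their counts in null_EC against WT_EC stand against 5.00% of all genes called lower and 8.12% called higher. All counts of these lists, mitosis genes included, come from the fit on all 12 arrays, and other fits were not counted for them. Of 22 E2F factors and S-phase regulators, 9 were lower and 0 higher in null_EC than in WT_EC, and the furthest were Ccna2, the S-phase cyclin A, 6.18-fold lower (adjusted p = 0.000162), and E2f8, a repressor of the E2F family, 4.16-fold lower (adjusted p = 0.000497). Ccna2 read 10.92, 10.25 and 11.08 in WT_EC and 7.91, 8.63 and 7.83 in null_EC, so that WT_EC 3 was its highest array where it was the lowest for most replication genes. Of 41 other replication factors, 17 were lower and 1, the polymerase delta subunit Pold4, was 1.31-fold higher. The largest drops there were in Top2a, topoisomerase II alpha, at 5.00-fold and Asf1b, a histone chaperone, at 3.64-fold. Of 22 other genes of nucleotide metabolism 2 were lower, the kinase Dck (1.90-fold) and the deaminase Dctd (1.52-fold), and 0 higher, a share of 9.09% lower that is near that of all genes. Of 30 histone genes, listed by the start of their symbol, 12 were lower and 0 higher. H2bc3 was 2.74-fold lower, and H2ac4, at low signal, 3.40-fold. Replication-dependent histone messages lack a poly(A) tail. Whether each of the 30 genes, H1f8 and H1f10 among them, is of that class was not checked.

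Mitosis genes were lower in null_EC as well. All 17 measured were called, with a median of -1.86, led by the checkpoint kinase Bub1 (7.69-fold) and the proliferation marker Mki67 (5.33-fold). Their array medians were 9.37, 8.84 and 9.63 in WT_EC, so that WT_EC 3 was the highest array, where the replication genes had their lowest WT_EC median. WT_EC 3 also had the leukocyte marker median of 10.30, and the part of other cells in either list was not tested. In null_EC the mitosis medians were 7.47, 7.84 and 7.47, in null_EB 8.05, 7.71 and 7.67 and in ESC 11.67, 11.69 and 11.64.

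**Figure D5:**
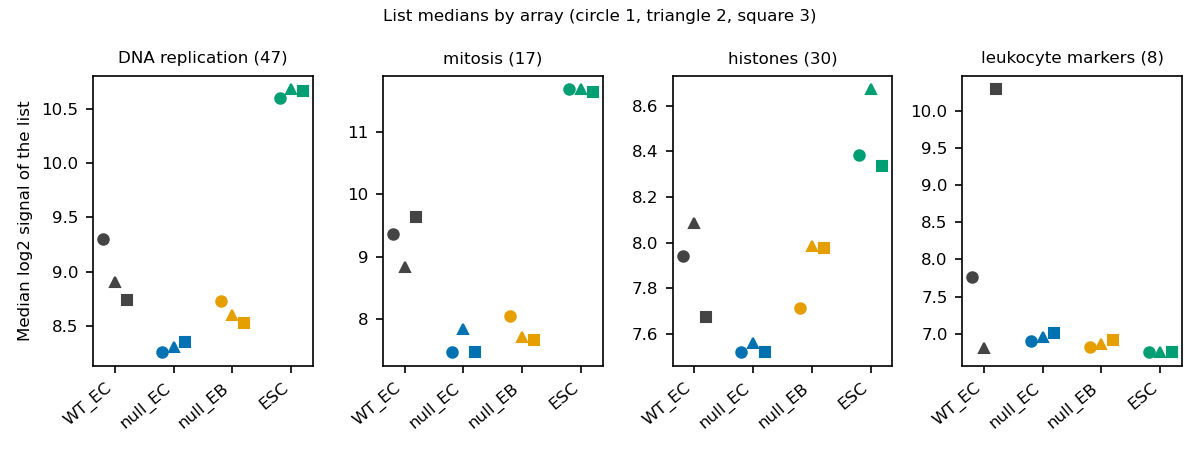
Median log2 signal of 4 gene lists on each array (circle, triangle and square for arrays 1, 2 and 3; number of genes in brackets; axes do not start at 0). WT_EC 1 is highest of the WT_EC arrays for replication (9.30), WT_EC 3 for mitosis (9.63) and leukocyte markers (10.30), and ESC is highest for replication, mitosis and histones.

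Between null_EB and null_EC few of the neighbouring genes were called in the first fit, as were few of all genes (2.90% higher and 2.50% lower). The spread of that fit is too large here: with the 2 groups alone 27.4% of all genes were called. The lists were not counted in the 2-group fit. Of the E2F and S-phase list 2 were higher, Lin9 (1.72-fold) and Rbl1 (1.52-fold), and 0 lower. Of the other replication factors 3 were higher, among them Wdhd1, which ties polymerase alpha to the helicase, at 1.85-fold, and Atad5, a PCNA unloader, at 1.49-fold, and Pold4 was 1.36-fold lower. In the remaining lists Dctd and 3 histone genes, H2bc3 and H2ac15 the furthest, were higher. Of the 17 mitosis genes limma called 0, with 4 at an unadjusted p below 0.05, for which no share of all genes was taken. All 17 differences were positive, with a median of 0.26, near the 0.29 of the replication genes. Against WT_EC, null_EB had 16 of the 17 mitosis genes, 9 of 30 histone genes, 6 of 22 E2F and S-phase genes and 11 of 41 other replication factors lower, where 6.19% of all genes were lower. Of those 41 factors 4, led by Atr (1.46-fold) and Rpain (1.42-fold), were higher, a share of 9.76% that is below the 12.3% of all genes.

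In ESC the lists differed in how many genes were higher. Against null_EC, where 22.9% of all genes were called higher and 25.1% lower, 17 of 17 mitosis genes, 34 of 41 other replication factors, 18 of 22 E2F and S-phase genes, 19 of 30 histone genes and 13 of 22 other nucleotide genes were higher. In the same order the counts were 17, 33, 18, 18 and 12 against null_EB (21.8% of all genes higher) and 17, 37, 17, 14 and 12 against WT_EC (25.4%), so that 46.7% of the histone genes were called higher than in WT_EC. The genes lower in ESC than in null_EC included Rbl2, the pocket protein p130 of resting cells, which read 8.68, 8.51 and 8.64 in ESC and 10.14, 10.22 and 10.12 in null_EC, 2.93-fold lower without overlap. Pold4 was 2.63-fold lower in ESC than in null_EC and 2.01-fold lower than in WT_EC, while the 3 polymerase delta subunits of the replication set were higher. Top2b was 1.65-fold lower where its relative Top2a was 22.0-fold higher, and the histone genes H2bc4 (3.51-fold) and H1f2 (2.76-fold) were lower. The cyclins Ccna2 and Ccne1 were 19.2-fold and 16.2-fold higher in ESC than in null_EC, Ccne1 was 7.54-fold higher than in WT_EC, and Bub1 was 59.4-fold above null_EC.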

How the data were processed

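The authors deposited log2 signals, 1 per probe set and array, made per the submitters' processing notes with Affymetrix Expression Console 1.2.1 and RMA, which corrects background, quantile-normalizes and summarises probe sets; quantile normalization assumes like signal distributions in all groups. Genome build and annotation are not given in the sources used here. The label protocol names a human array, but the probe set identifiers match a mouse platform, whose gene table was used. Of 35556 probe sets, 21789 with 1 gene were kept, and for 999 genes with several (3 of them replication genes) the one with the highest mean over 12 arrays. No detection calls were used, so a mean below 8.01, the median of all values, in both groups is called low signal.

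All 12 arrays were fitted with limma 3.58.1 (R 4.3.3), with a mean per group and 1 moderated spread per gene, for 6 comparisons that share groups. The Benjamini-Hochberg adjustment ran across the 19938 genes. The steps were tested on simulated data with 1 spread per gene for all groups, unlike the data. That test cannot show how calls fare under the wide WT_EC spread. Every replication gene is named. Genes named from each other list were picked from the 2 called genes that rose most and the 2 that fell most in a comparison. Not all of those are named. The genes and lists were chosen with earlier results of these data known.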

Additional observations from a re-analysis of the deposited data

How the results depend on the processing

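Limits: 3 arrays a group, of unknown origin, set the precision, and the wide WT_EC spread makes pooled p-values against WT_EC too small and those without it too large. Against ESC, 46 of 46, 46 of 47 and 46 of 47 calls (from null_EC, null_EB and WT_EC) held in all alternative settings other than the 2-fold minimum, Rrm1 and Tyms being the exceptions, and that minimum left 46, 46 and 40 calls. Of the calls between null_EC and WT_EC, 6 of 29 held in all 14 of these settings, of those between null_EB and null_EC 1 of 2, Pold3, in 15, and of those between null_EB and WT_EC 0 of 17 in 14.

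In the order null_EC against WT_EC, null_EB against null_EC and null_EB against WT_EC, the first fit called 29, 2 and 17 genes (13.1%, 5.40% and 18.5% of all genes). The 2 groups alone gave 6, 30 and 0 (2.95%, 27.4% and 4.36% of all genes). Group weights gave 19, 29 and 7 (7.68%, 26.9% and 9.60%), and a minimum of 2-fold gave 11, 0 and 3 (3.27%, 1.23% and 3.40%). At an unadjusted p below 0.05 stood 22 genes for null_EB against null_EC in the first fit. For null_EB against WT_EC in the 2 groups alone there were 19. The shares of all genes at that unadjusted p were not taken. For null_EB against null_EC, array weights gave 35 genes (40.1% of all genes) and scaling to housekeeping genes 14 (10.2%). Leaving out the WT_EC group, chosen after seeing the data, gave 28 (25.4%). Leaving out 1 array gave 16 to 34 genes, 1 gene each time and 8 to 24 genes in the order of the first 3 comparisons. The shares of all genes called were 6.70% to 27.3%, 1.96% to 3.39% and 10.2% to 32.6%. The fit with the replicate number as a block (replicate block) gave 28, 3 and 16 genes (11.2%, 3.83% and 16.3% of all genes). For ESC against null_EC, null_EB and WT_EC it gave 46, 47 and 47 (45.9%, 42.8% and 44.9%). Deviations of same-numbered arrays correlated between -0.26 and 0.22, so the numbers were not taken to pair arrays.

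The median log2 difference of the 47 genes for ESC against null_EC, 2.29 in the first fit, was 2.24 with array weights and 2.10 with housekeeping scaling, and 2.23 to 2.30 with 1 array left out. Housekeeping scaling also moved it from 0.29 to 0.48 for null_EB against null_EC and from 1.94 to 1.57 for ESC against null_EB, while the median of all genes went to 0.18 and -0.45 (-0.28 and -0.30 for ESC against null_EC and WT_EC). No called difference changed sign and stayed called. The dim-gene filter, the mean of probe sets and the trended, robust fit gave 29 to 30, 2 and 15 to 18 genes in the first order. The shares of all genes were 12.5% to 15.4%, 4.69% to 6.49% and 17.5% to 21.9%.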
